A study of Homo sapiens with 4 samples.

Results

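The genes of the proteasome and of its activators were examined in AGS cells, a line established from a human gastric adenocarcinoma, with and without silencing of MFAP2. The set was taken by name from the deposited gene table as every symbol made of PSMA, PSMB, PSMC, PSMD, PSME, PSMF or PSMG and a number, without the 3 immunoproteasome genes PSMB8, PSMB9 and PSMB10. This gave 45 of 47251 genes, namely 8 PSMA, 8 PSMB, 6 PSMC, 14 PSMD, 4 PSME, 1 PSMF and 4 PSMG genes. RNA was sequenced in 2 libraries of AGS cells carrying an shRNA directed to MFAP2 (sh-MFAP2, replicates 1 and 2) and in 2 libraries of cells carrying a scrambled shRNA (sh-control, called control, replicates 1 and 2). MFAP2 encodes microfibrillar-associated protein 2 of the extracellular matrix. According to the study's methods, both shRNAs were delivered by lentivirus and both lines were grown in DMEM under puromycin selection with a green fluorescent reporter, so the control cells shared the virus, the drug and the reporter. The labels give 1 shRNA against MFAP2 and do not say whether the 2 libraries of a group came from separate cultures. Each p-value below thus measures only the spread between these libraries. In the limma fit that spread was partly shared across all genes or transcripts tested, so it is not that of the single gene alone.

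The proteasome degrades proteins that carry ubiquitin. Its core particle is a barrel of α subunits, encoded by PSMA genes, that gate the entrance, and β subunits, encoded by PSMB genes, of which PSMB5, PSMB6 and PSMB7 cut peptide bonds. The regulatory particle on the end of the barrel has a base with a ring of ATPases (PSMC genes), which unfold substrates, and a lid (part of the PSMD genes), which removes ubiquitin. PSME genes encode other caps that open the barrel without ATP, PSMF1 encodes PI31, a protein that binds the core and was first described as an inhibitor, and PSMG genes encode chaperones that assemble the α ring. The subunits are needed in a fixed ratio, their genes are known to be transcribed together, and the complex is abundant in dividing cells.

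Values are FPKM, fragments scaled by transcript length and library depth, which is the unit inferred from the deposited numbers. MFAP2 itself had a value of 0 in sh-MFAP2 cells and of 0.0116 and 0.0138 FPKM in control cells, which is too low in every library to check the labels. The steps between low values implied 54800000 to 75000000 reads per library. The epithelial markers EPCAM, KRT8, KRT18 and KRT19 were at 193 FPKM or more in all 4 libraries, and their groups overlapped. Of 12 markers of fibroblasts, leukocytes and endothelium, 10 were at 0.0656 FPKM or less in every library. The other two lay apart between the groups, although neither was called. COL1A1, a collagen chain of fibroblasts, was at 2.27 and 2.07 FPKM in sh-MFAP2 cells and at 4.36 and 4.92 FPKM in control cells, and CD68, a marker of macrophages, was at 3.13 and 3.12 FPKM against 7.85 and 7.2 FPKM. Their part in the results below was not tested. In RNA of whole cultures, fewer cells of a type and less RNA per cell cannot be told apart.

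No proteasome gene passed the test between sh-MFAP2 and control cells. Of the 45 genes, 42 had a mean of at least 1 FPKM and were tested with limma on log2(FPKM + 1). None was called at p under 0.01 with a Benjamini-Hochberg adjusted p under 0.05, against 0.273% of all 9873 genes tested. That share stands for 27 genes, which became 6 with no filter, 9 at a mean of at least 5 FPKM and 0 when any 1 library was left out. At an unadjusted p under 0.05 in limma there were 3 (7.14%), against 12.3% of all genes. Without control replicate 1 there were 0, and without sh-MFAP2 replicate 2 there were 5. The 3 genes were 1 gene higher in sh-MFAP2, where the share of all genes was 3.89%, and 2 genes lower, where it was 8.41%. A two-sided exact permutation test of 2 libraries against 2 has 0.333 as its smallest possible p for any gene taken alone.

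The differences between groups were small in either direction. On the log2 scale the 42 differences (sh-MFAP2 minus control) ran from -0.39 to 0.45, 21 above 0 and 21 below, with a median of 0.01 beside -0.05 for all genes tested. Of all 9873 genes tested, 4151 were above 0 and 5722 below, which is the background for each count of directions that follows. The median of the 42 genes turned to -0.05 without sh-MFAP2 replicate 2 and was 0.08 without sh-MFAP2 replicate 1 and under median-of-ratios scaling. The difference was under 0.25 in size for 36 of 42 genes (85.7%) beside 61.4% of all genes, and under 0.5 for all 42 beside 86.6% of all genes. The 95% interval of the difference lay within 1 of 0 on the log2 scale, a 2-fold difference, for 39 of 42 genes (92.9%) beside 77.6% of all genes tested. The 3 genes with wider intervals were PSMD10, PSMD13 and PSMG4. The interval lay within 1.5-fold for 27 of 42 genes, and for the remaining genes a change of that size lay inside the interval that 2 libraries per group allow. The 2 sh-MFAP2 libraries differed from each other by a median of 0.16 and the 2 control libraries by 0.10 over these genes, beside 0.20 and 0.11 over all genes. The median size of the difference between groups was 0.11 for proteasome genes and 0.19 for all genes. A difference between means of 2 libraries varies less than one between 2 single libraries, so these sizes cannot be compared directly with the replicate gaps.

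**Figure D1:**
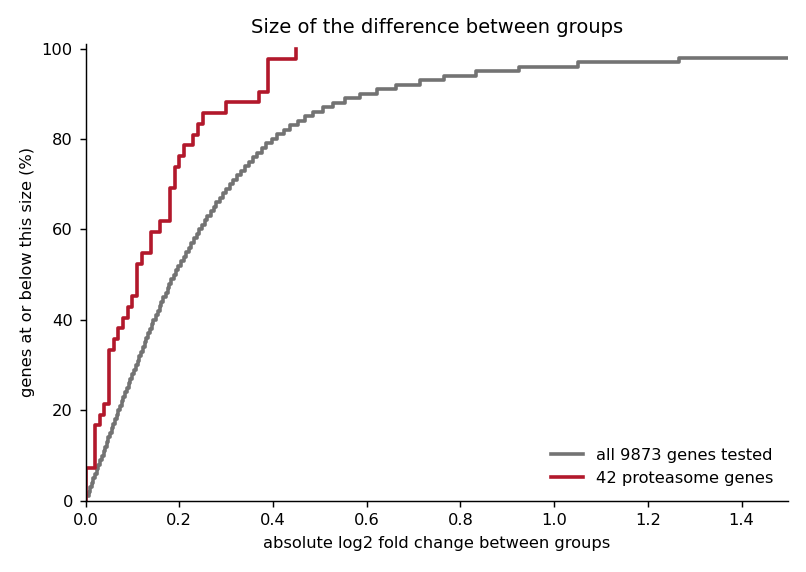
Share of genes (vertical axis, percent) whose absolute log2 fold change between sh-MFAP2 and control libraries is at or below the value on the horizontal axis, for the 42 proteasome genes (red) and all 9873 genes tested (grey). The red line is complete at 0.45, where the grey line has not reached 86.6%, its value at 0.5.

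The sh-MFAP2 libraries both lay above both controls for 10 genes (23.8%, beside 17.5% of all genes) and below both for 9 genes (21.4%, beside 31.4% of all genes), while 23 overlapped. The 10 higher genes were PSMA5, PSMA7, PSMB3, PSMB5, PSMB7, PSMC3, PSMC5, PSMD4, PSME2 and PSMG3. The 9 lower genes were PSMA2, PSMC6, PSMD3, PSMD6, PSMD9, PSMD11, PSME3, PSME4 and PSMF1. The order of the 42 genes by level was nearly the same in the 4 libraries, with Spearman correlations across genes of 0.965 to 0.980 between libraries, as a description of libraries that share cell line and annotation.

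**Figure D2:**
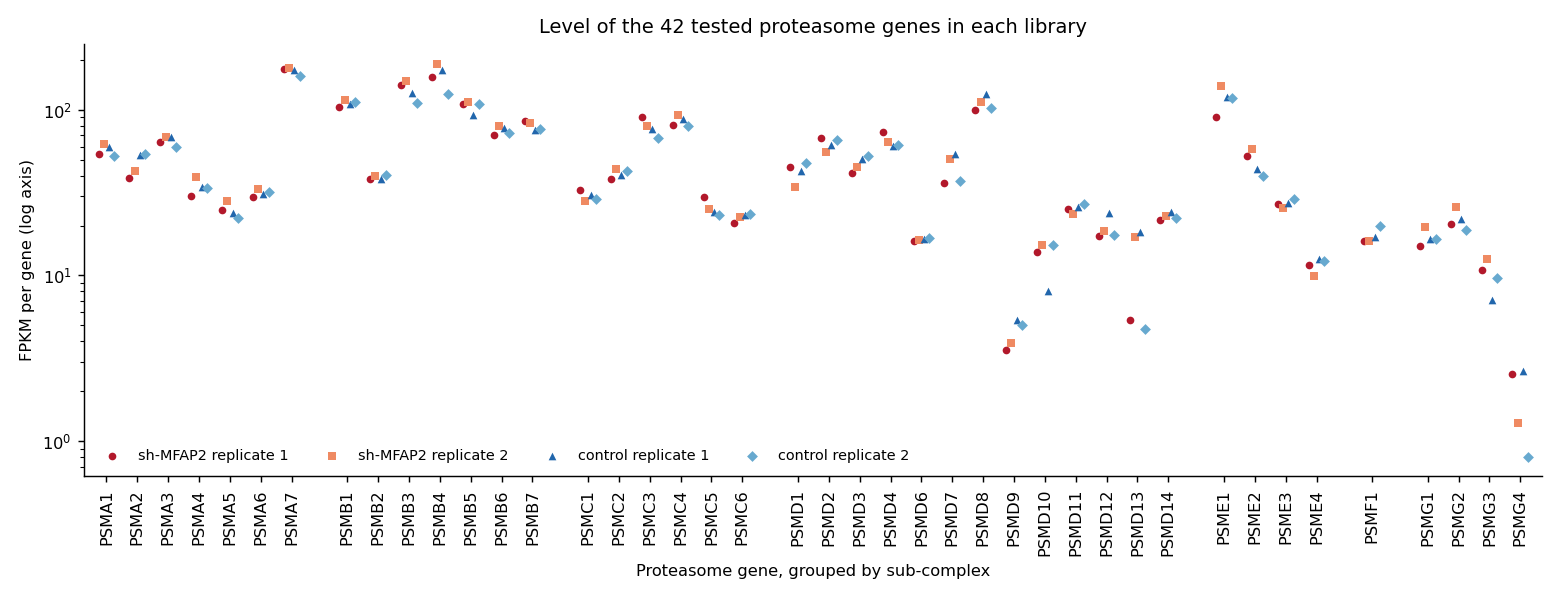
FPKM per gene on a log axis for the 42 tested proteasome genes, grouped by sub-complex, with 1 point per library (red and orange: sh-MFAP2 replicates 1 and 2, dark and light blue: control replicates 1 and 2). The 4 points lie close together for most genes, and those of PSMD13, PSMG4 and, for control replicate 1, PSMD10 lie apart.

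The α ring genes had a median difference of 0.04, with 5 genes above 0 and 2 below. PSMA7, the most abundant of them, was at 176 and 179 FPKM in sh-MFAP2 cells and 174 and 160 FPKM in control cells. PSMA5, the least abundant, was at 24.9 and 28.1 FPKM against 23.9 and 22.3 FPKM, and its difference of 0.19 was the highest of the ring. Both genes were higher in each sh-MFAP2 library than in either control, by margins inside the error (limma adjusted p = 0.738 and 0.553). PSMA2 had the lowest difference of the ring. It was at 38.9 and 42.6 FPKM in sh-MFAP2 cells and at 53.1 and 54.1 FPKM in control cells, so that the groups did not overlap. The log2 difference was -0.39 (SE 0.11, 95% interval -0.70 to -0.07), and did not pass the test (limma adjusted p = 0.389, unadjusted 0.027). Its main transcript, ENST00000223321, gave 86.3% to 98.9% of the summed transcript FPKM and was at 37.1 and 40 FPKM in sh-MFAP2 cells and 49.5 and 53.9 FPKM in control cells.

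The β ring genes had a median difference of 0.12, with 4 genes above 0 and 3 below. Without control replicate 2 the median was 0.04 and without control replicate 1 it was 0.05. In 3 of 7 genes both sh-MFAP2 libraries lay above both controls and in 0 of 7 below both, beside 17.5% and 31.4% of all genes. PSMB5, which carries the chymotrypsin-like activity, was at 108 and 111 FPKM in sh-MFAP2 cells and 93.4 and 108 FPKM in control cells. PSMB6, which carries the caspase-like activity, was at 70.6 and 80.1 FPKM against 77.8 and 72.7 FPKM. PSMB7, which carries the trypsin-like activity, was at 85.7 and 83 FPKM against 76 and 76.5 FPKM. The log2 differences of the 3 catalytic subunits were 0.12 (95% interval -0.24 to 0.48), -0.00 (-0.36 to 0.36) and 0.14 (-0.15 to 0.43), and each of these intervals lay within 1.5-fold. PSMB3, a non-catalytic subunit, had the highest difference of the ring. It was at 141 and 150 FPKM in sh-MFAP2 cells and 127 and 110 FPKM in control cells, a difference of 0.30 (SE 0.132, limma adjusted p = 0.448). PSMB1 had the lowest difference, -0.02, with 104 and 114 FPKM against 109 and 112 FPKM. PSMB4, the most abundant β gene, was at 157 and 190 FPKM against 175 and 125 FPKM, and PSMB2, the least abundant, was at 38.4 and 40 FPKM against 38.2 and 40.4 FPKM. In PSMB4 the 2 control libraries lay farther apart than the groups, and in PSMB2 all 4 libraries were nearly equal.

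**Figure D3:**
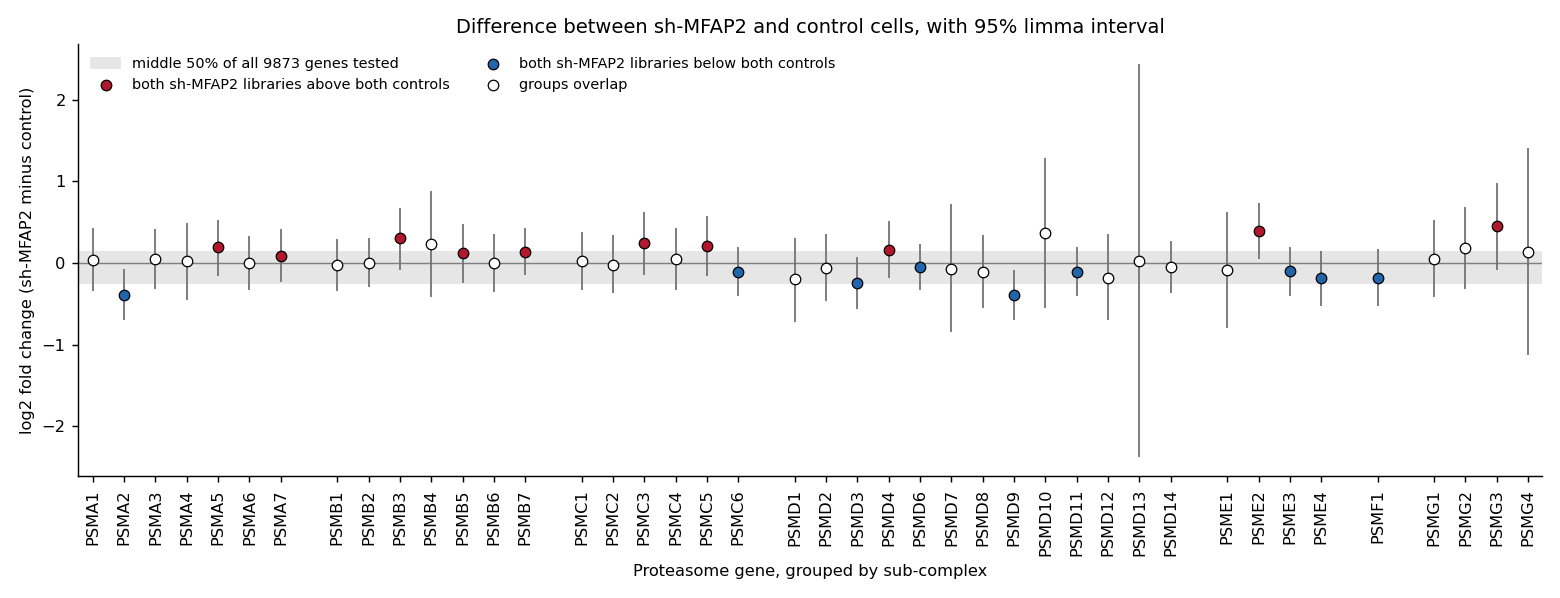
Log2 fold change (sh-MFAP2 minus control, on the log2(FPKM + 1) scale) of the 42 tested proteasome genes with 95% limma intervals, and in grey the middle 50% of all genes tested. Red points have both sh-MFAP2 libraries above both controls (10 genes), blue points below both (9 genes), and white points overlap (23 genes).

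The ATPase ring of the base had a median difference of 0.04. PSMC4, its most abundant gene, was at 81 and 92.4 FPKM in sh-MFAP2 cells and 88 and 79.4 FPKM in control cells, and its groups overlapped. PSMC3 had the highest difference, 0.24 (SE 0.136, limma adjusted p = 0.514), with 90.4 and 80.2 FPKM against 76.8 and 67.3 FPKM. PSMC6 had the lowest, -0.11, with 20.8 and 22.4 FPKM against 23.3 and 23.4 FPKM, and was the least abundant of the ring by this measure. Its gene value was held down by the gene length used in the deposited table. Summed over its transcripts PSMC6 reached 102 FPKM, the third highest of the 6 ATPase genes.

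The PSMD genes, which encode other subunits of the regulatory particle and chaperones of its base, had a median difference of -0.07 beside -0.05 for all genes. Of these genes 3 were above 0 and 10 below, beside 4151 above and 5722 below among all genes tested. The median was 0.00 under median-of-ratios scaling and -0.12 without control replicate 2. Among the lid genes with a PSMD name, 7 of 8 were below 0, with a median of -0.09 and a range of -0.25 to 0.03. Of the 8, 3 (PSMD3, PSMD6 and PSMD11) had both sh-MFAP2 libraries below both controls, beside 31.4% of all genes. None of the 8 passed the test, and none had an unadjusted limma p under 0.05. SHFM1, a lid gene without a PSMD name, was outside the set and is given with the associated genes below. PSMD8, a lid subunit and the most abundant PSMD gene, was at 99.2 and 111 FPKM in sh-MFAP2 cells and 125 and 102 FPKM in control cells. PSMD14, the deubiquitinase of the lid, was at 21.7 and 22.9 FPKM against 24.3 and 22.1 FPKM, a difference of -0.05 (95% interval -0.37 to 0.27).

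PSMD9 and PSMD10 encode chaperones that help to build the base and are not part of the finished particle. PSMD9 had the smallest p-value of all 42 genes and the lowest level of the PSMD genes tested. It was at 3.56 and 3.9 FPKM in sh-MFAP2 cells and 5.4 and 5.02 FPKM in control cells, with no overlap. The log2 difference was -0.39 (SE 0.108, 95% interval -0.70 to -0.09), which did not pass the test (limma adjusted p = 0.378, unadjusted 0.0242). PSMD10, also known as gankyrin, had the highest difference among PSMD genes, 0.37, with an interval from -0.55 to 1.29. It was at 13.9 and 15.3 FPKM in sh-MFAP2 cells and 8.05 and 15.2 FPKM in control cells, so 3 libraries were alike and control replicate 1 was low. Without control replicate 1 the difference was -0.05.

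Among the 4 activator genes 1 difference was above 0 and 3 were below. PSME1 and PSME2 encode the α and β subunits of PA28, a cap induced by interferon that favours the release of peptides for antigen presentation. PSME2 was at 52.8 and 58.2 FPKM in sh-MFAP2 cells and 43.9 and 40.0 FPKM in control cells, with no overlap. The log2 difference was 0.39 (SE 0.121, 95% interval 0.05 to 0.74), which did not pass the test (limma adjusted p = 0.394, unadjusted 0.0342). PSME1, the most abundant activator, was at 90.3 and 140 FPKM against 120 and 118 FPKM, with its sh-MFAP2 libraries the lowest and the highest of the 4 and a difference of -0.08. The ratio of PSME2 to PSME1, from summed transcript FPKM, was 0.953 and 0.616 in sh-MFAP2 and 0.553 and 0.508 in control libraries, and was not tested. PSME4, which encodes the large nuclear cap PA200, was the least abundant activator and had the lowest difference, -0.19 (95% interval -0.53 to 0.15), with 11.5 and 9.95 FPKM against 12.5 and 12.2 FPKM. PSMF1 was at 16.1 and 16.1 FPKM in sh-MFAP2 cells and 17 and 19.8 FPKM in control cells, a difference of -0.18 (SE 0.124, limma adjusted p = 0.572).

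The 4 PSMG chaperones of α ring assembly were all above 0, with a median of 0.16 that ran from 0.06 without control replicate 2 to 0.29 without sh-MFAP2 replicate 1. PSMG3 had the highest difference of all 42 proteasome genes, 0.45 (95% interval -0.08 to 0.98, limma adjusted p = 0.425). It was at 10.8 and 12.5 FPKM in sh-MFAP2 cells and 7.08 and 9.58 FPKM in control cells, which did not overlap. PSMG2, the most abundant, was at 20.4 and 26 FPKM against 22 and 18.7 FPKM, and PSMG4, the least abundant, was at 2.53 and 1.28 FPKM against 2.66 and 0.805 FPKM. In PSMG4 the second library of each group was the lower, and the 2 control libraries differed by 1.02 on the log2 scale, so its difference of 0.14 had an interval of -1.13 to 1.41. The same split was seen in its main transcript ENST00000438998, at 23.5 and 10.2 FPKM in sh-MFAP2 cells and 24.2 and 5.53 FPKM in control cells. PSMG1 had the lowest difference of the PSMG genes, 0.05.

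The 3 remaining genes were below 1 FPKM and were not tested. PSMA8, a relative of PSMA7 used in the testis, was listed at 0 in all 4 libraries. PSMB11, the β subunit of the thymus, was at 0.0312 and 0.00869 FPKM in sh-MFAP2 cells and at 0 in both control libraries, which the step of the low values places at about 4.01 and 1 reads. PSMD5, the third chaperone of the base, had values of 0 and 0.00827 FPKM in sh-MFAP2 cells and of 0.00331 and 0 FPKM in control cells, at or under the floor of 3 reads. A listed 0 can be a failed estimate, and UBQLN2, a ubiquitin shuttle gene, was also listed at 0 in all 4 libraries.

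Levels could be compared between subunits only from summed transcript FPKM, since the gene values depend on the gene length that was used. PSMD6 shows this best, with 16.1 to 16.9 FPKM as a gene and 100 to 105 FPKM summed over its transcripts. On the summed scale the core subunits ran from PSMB4 (mean 362 FPKM), PSMA7 (304 FPKM) and PSMB1 (266 FPKM) down to PSMA2 (49.6 FPKM) and PSMA5 (42.9 FPKM). The library values of PSMA2 and PSMA5 overlapped, while those of PSMB4 and PSMB1 did not. The ATPases ran from PSMC4 (133 FPKM) to PSMC1 (45.2 FPKM), and PSMC4 overlapped with PSMC3 (122 FPKM). The PSMD genes of the lid and base ran from PSMD8 (232 FPKM) and PSMD4 (149 FPKM) down to PSMD13 (31.3 FPKM) and PSMD12 (24.5 FPKM). The chaperones were lower than most subunits, at 44.7 FPKM for PSMG2, 32.9 FPKM for PSMG1, 23.2 FPKM for PSMD10, 17.4 FPKM for PSMG3, 16.7 FPKM for PSMG4 and 13.6 FPKM for PSMD9. The core subunits, which occur in equal number in the particle, thus spanned 42.9 to 362 FPKM.

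The immunoproteasome genes were left out of the set and are given beside it. PSMB8, PSMB9 and PSMB10 replace PSMB5, PSMB6 and PSMB7 in cells exposed to interferon. All 3 had both sh-MFAP2 libraries above both controls, beside 17.5% of all genes, and their median difference was 0.56. PSMB10 was at 15.2 and 16.1 FPKM in sh-MFAP2 cells and 10.1 and 9.51 FPKM in control cells, a difference of 0.63 (SE 0.106, limma adjusted p = 0.283, unadjusted 0.00495). PSMB9 was at 2.14 and 1.53 FPKM against 0.96 and 1.09 FPKM, a difference of 0.48 with an adjusted p of 0.395 in limma. PSMB8 was at 28.5 and 35.7 FPKM against 24.3 and 18.7 FPKM, a difference of 0.56 with an adjusted p of 0.407 in limma. None of the 3 passed the test, and 2 of them, PSMB9 and PSMB10, had an unadjusted limma p under 0.05, beside 3.89% of all genes in that direction. Whether they differ from the other proteasome genes was not tested. In summed transcript FPKM the ratio of PSMB10 to PSMB7 was 0.151 and 0.166 in sh-MFAP2 and 0.118 and 0.113 in control libraries. For PSMB8 to PSMB5 it was 0.368 and 0.435 against 0.352 and 0.234, and for PSMB9 to PSMB6 0.0707 and 0.0435 against 0.0285 and 0.0346, so the constitutive subunit was the more abundant of each pair in every library.

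**Figure D4:**
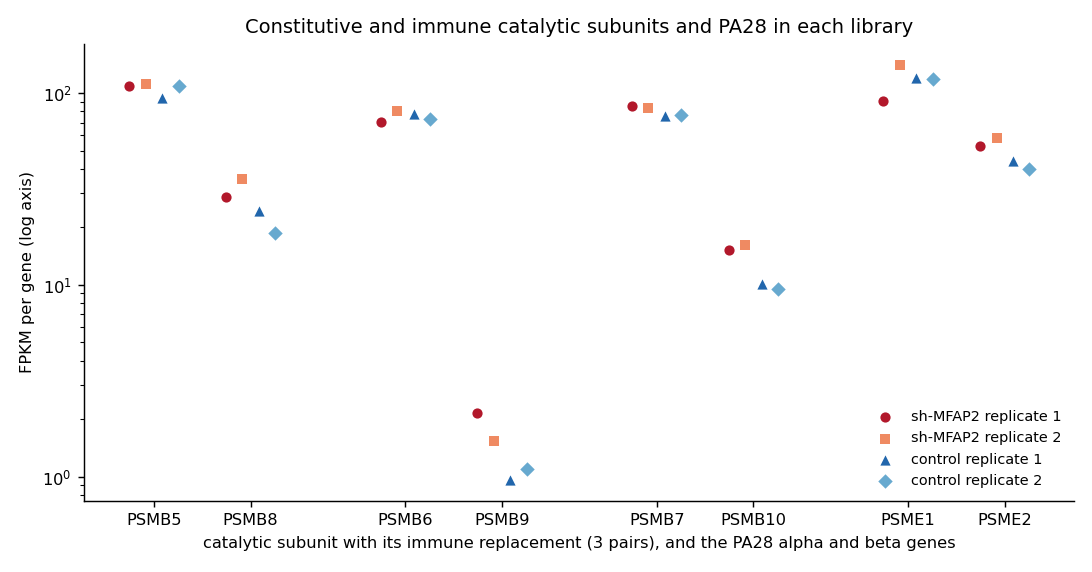
FPKM per gene on a log axis in each library for PSMB5, PSMB6 and PSMB7, each beside the immune subunit that can replace it, and for PSME1 and PSME2. In PSMB8, PSMB9, PSMB10 and PSME2 both sh-MFAP2 points (red and orange) lie above both control points (blue), and in PSMB6 and PSME1 they overlap.

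Among 17 genes whose products work with the proteasome (ubiquitin receptors and shuttles, deubiquitinases, assembly and import factors), 16 were tested. They had a median difference of -0.21, with 2 above 0 and 14 below. The 2 above 0 were ADRM1 (0.23) and SHFM1 (0.30), which encode subunits of the regulatory particle and fall outside the set by name. Groups did not overlap for 2 higher and 7 lower genes, beside 17.5% and 31.4% of all genes. None was called and none had an unadjusted limma p under 0.05. Of 9 genes for the transcription of proteasome genes and the processing of NFE2L1, 8 were tested, with a median of -0.12, 3 above 0 and 5 below, and again none had an unadjusted limma p under 0.05. NFE2L1, the factor that raises proteasome transcription when degradation is impaired, was at 27.1 and 13.5 FPKM in sh-MFAP2 cells and 26.5 and 31.1 FPKM in control cells, with only sh-MFAP2 replicate 2 set apart. It was chosen for mention after its values were seen. As 2 other complexes of fixed composition, the 8 CCT chaperonin genes had a median of -0.05, and 77 tested ribosomal protein genes had a median of 0.14 with 64 above 0. The groups overlapped for 57 of the 77, beside 5041 of all 9873 genes tested. Without overlap, 19 were higher and 1 was lower, beside 17.5% and 31.4% of all genes. The median log2 level over all 77 was 7.32 and 7.71 in sh-MFAP2 and 7.57 and 7.29 in control libraries, highest in sh-MFAP2 replicate 2 and alike in sh-MFAP2 replicate 1 and control replicate 2.

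Promoters were searched on both strands for CCAAT, the box bound by NF-Y, and TGACNNNGC, the core of the antioxidant response element bound by NFE2L1 and its relatives. RefSeq windows (GRCh38.p14) from 250 bases before to 50 bases after the gene start were at hand for 39 of the 45 genes. CCAAT was found in 19 of 39 (48.7%), beside 39.7% of 27305 genes. The antioxidant core was found in 14 of 39 (35.9%), beside 16.1% of 27305 genes. They were PSMA4, PSMB3, PSMC4, PSMC5, PSMD1, PSMD3, PSMD5, PSMD9, PSMD12, PSME1, PSME2, PSME4, PSMG1 and PSMG2. A match of letters is a description and not a bound site. The stretches that hold the matches are shown for PSMD9 and PSMA2, the genes with the lowest differences, with the matches in capitals and 30 bases on either side. That of PSMD9 is chr12:121888611-121888726 on the plus strand and holds 2 antioxidant cores, the first on the opposite strand. That of PSMA2 is chr7:42932224-42932288, read on the minus strand, and holds 1 CCAAT box. Neither stretch lies in an annotated exon of its gene.
PSMD9: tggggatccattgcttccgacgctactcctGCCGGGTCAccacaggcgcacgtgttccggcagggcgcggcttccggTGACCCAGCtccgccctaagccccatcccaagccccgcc
PSMA2: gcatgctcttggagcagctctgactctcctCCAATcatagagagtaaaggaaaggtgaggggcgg

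In some genes the groups lay apart in single transcripts where the gene value was level, though no transcript was called. For 34 of the 42 genes the same transcript led in all 4 libraries. Of 145 proteasome transcripts with a mean of at least 1 FPKM, 16 (11%) had an unadjusted limma p under 0.05, beside 7.64% of all 22312 transcripts. The 16 came from PSMA1, PSMA6, PSMB4, PSMD1, PSMD4, PSMD9 and PSMG2 only, with more from PSMA6 than from any other gene. Transcripts of 1 gene share reads, so the 16 are not separate observations. The smallest adjusted p among all transcripts was 0.064. This test was added after the data were seen. The values of single transcripts are estimates that divide shared reads between near-identical sequences.

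PSMA6, an α subunit, was level as a gene, at 29.8 and 33.3 FPKM in sh-MFAP2 cells and 31 and 32.1 FPKM in control cells, a difference of -0.00 (95% interval -0.33 to 0.33). Its transcripts, chosen for mention after their values were seen, were not level. ENST00000261479 was at 147 and 184 FPKM in sh-MFAP2 cells and 32.2 and 56.7 FPKM in control cells (log2 difference 1.92, SE 0.347, limma adjusted p = 0.395 over all transcripts). ENST00000553809 was at 24.7 and 12.1 FPKM against 119 and 113 FPKM (log2 difference -2.67, SE 0.39, limma adjusted p = 0.315). The first gave 78.3% and 88.5% of the summed value in sh-MFAP2 and 15% and 25.7% in control libraries, and the second 13.2% and 5.81% against 55.5% and 51%. The libraries of a group thus stood together and the groups did not overlap, but neither transcript passed the test. In GENCODE 29 (GRCh38) ENST00000553809 has 18 coding bases (6 codons) at the start of exon 5, chr14:35312863-35312880, that ENST00000261479 lacks, and ENST00000261479 has 168 noncoding bases that the other lacks. Exon 5 of ENST00000553809, chr14:35312863-35313059 on the plus strand, is shown because those bases, in capitals, are the coding difference between the transcripts.
PSMA6 exon 5: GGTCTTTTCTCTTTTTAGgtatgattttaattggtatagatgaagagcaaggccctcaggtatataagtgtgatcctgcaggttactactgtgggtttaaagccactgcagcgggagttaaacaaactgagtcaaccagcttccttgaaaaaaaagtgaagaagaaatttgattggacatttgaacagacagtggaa

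PSMD13, a lid subunit on chr11:236546-252984, lay farther apart between replicates than between groups. It was at 5.41 and 17.1 FPKM in sh-MFAP2 cells and 18.3 and 4.75 FPKM in control cells, gaps of 1.5 and 1.75 between replicates on the log2 scale. Its difference was 0.03 (SE 0.845), with an interval from -2.37 to 2.44, the widest of the 42 genes. ENST00000532097 was at 1.09 and 38.6 FPKM in sh-MFAP2 cells and 40.8 and 3.14 FPKM in control cells, or 5.71%, 89%, 88.3% and 19.3% of the summed value. ENST00000352303 was at 12.6 and 0.64 FPKM against 1.42 and 7.58 FPKM, or 65.9%, 1.48%, 3.07% and 46.6%. Thus sh-MFAP2 replicate 2 and control replicate 1 had more of the first, and the other libraries more of the second. The first transcript has exon 11, of 81 coding bases (27 codons) at chr11:251546-251626 on the plus strand, which the second skips, and 480 more noncoding bases in exon 1. PSMD13 overlaps SIRT3 on the opposite strand, and how strand was treated in counting is not given in the sources used here. Exon 11 is shown because the 2 transcripts differ by the whole of it.
PSMD13 exon 11: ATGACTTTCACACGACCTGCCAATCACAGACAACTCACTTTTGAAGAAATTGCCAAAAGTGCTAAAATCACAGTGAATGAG

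**Figure D5:**
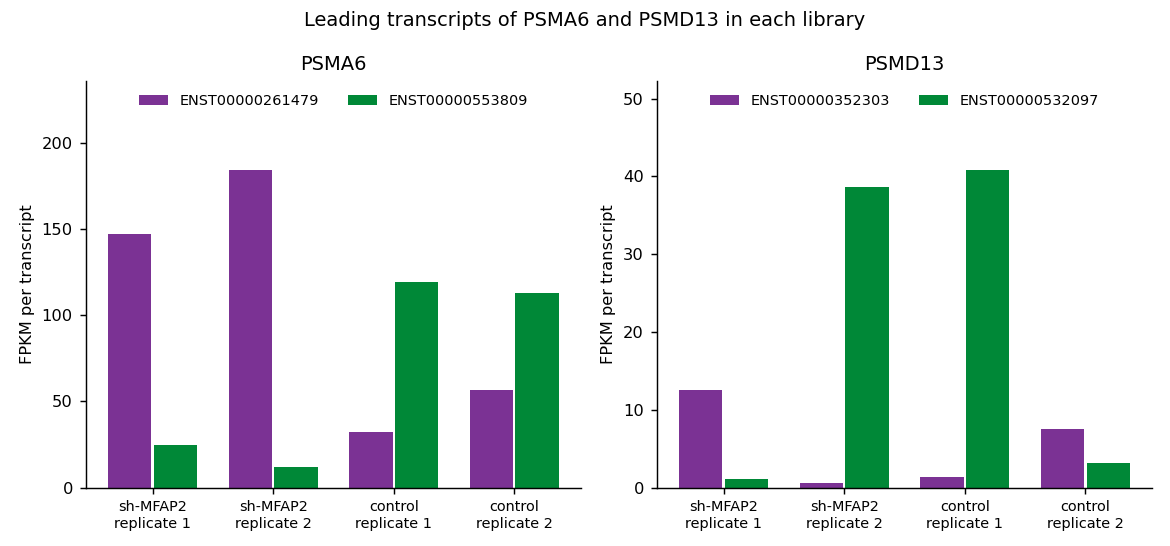
FPKM of 2 transcripts of PSMA6 (left) and of PSMD13 (right) in each library, as bars from 0. In PSMA6 the leading transcript differs between sh-MFAP2 and control libraries, and in PSMD13 it differs between the replicates of each group.

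In PSMD9 transcript shares also differed between the groups, within a lower gene total, but ENST00000541212 led in every library. It gave 61.1% and 57.7% of the summed value in sh-MFAP2 and 89.2% and 84% in control libraries. ENST00000541212 was at 6.91 and 7.19 FPKM in sh-MFAP2 cells and 14 and 12.5 FPKM in control cells (log2 difference -0.82, limma adjusted p = 0.453), while ENST00000261817 was at 3.29 and 3.83 FPKM against 0.951 and 1.53 FPKM (1.03, limma adjusted p = 0.5). The transcripts of PSMD4, the ubiquitin receptor of the base, were also chosen after their values were seen. ENST00000368884 was at 131 and 109 FPKM against 64.2 and 68.1 FPKM (log2 difference 0.85, limma adjusted p = 0.443). ENST00000368881 was at 16.2 and 19.7 FPKM against 40.4 and 70 FPKM (-1.52, limma adjusted p = 0.489). ENST00000476855, which has no coding bases, was at 17.2 and 15.7 FPKM against 32.4 and 0.12 FPKM, so the control libraries differed widely in it. As a gene PSMD4 was at 73.1 and 64.2 FPKM against 60.4 and 61.7 FPKM. The transcripts of PSME2 gave no such split by group. Its main transcript ENST00000216802 was at 103 and 138 FPKM in sh-MFAP2 cells and 99.9 and 90.5 FPKM in control cells, and ENST00000615264 was at 19.9 FPKM in sh-MFAP2 replicate 1 and at 0.459 FPKM or less in the other libraries.

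The position of the genes can limit some of these values. Of the 45 genes, 23 overlap a gene on the opposite strand and 11 a gene on the same strand in GENCODE 29. These counts take whole gene spans, introns included, and overlap of exons was not examined. Reads from exons that overlap on opposite strands cannot be told apart without strand. For 12 of the 45 genes GENCODE names pseudogenes, 32 in all, of which 1 has a row by name in the deposited gene table. Such sequences can take reads from the parent gene, which was not tested here.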

How the data were processed

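Total RNA of 4 AGS libraries was sequenced after standard Illumina preparation. The authors deposited a gene table and a transcript table whose values are taken as FPKM, from their steps and sums. Gene values equalled their transcripts' values weighted by length and divided by 1 length per gene. The build is hg38 per the submitters' processing notes, and the aligner, quantifier and annotation are not given in the sources used here. Groups came from the labels. The 9873 genes whose mean reached 1 FPKM were tested on log2(FPKM + 1), which understates changes of low genes, with lmFit and eBayes (trend) in limma 3.58.1 under R 4.3.3, and Benjamini-Hochberg adjustment over all of them. A gene was called at p under 0.01 and adjusted p under 0.05. The fit was tested on simulated data with changes larger than any difference of a proteasome gene here. That test says nothing about finding differences as small as these. Low values fell on whole read steps (tolerance 0.05) in 61.0% to 61.3% of cases, so no count test was run, and FPKM gives no counting interval. Same-numbered replicates did not deviate together (correlation -0.0572 over genes), so numbers were not used as pairs.

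Members and gene lists were chosen with earlier results of these data known. Values in every library were given for members with unadjusted p under 0.05, the extremes of each sub-complex by difference and by level, members under the filter, members whose replicates differed by over 1, and PSMB5, PSMB6 and PSMB7. Alternatives were other filters (none, or a mean of 5 FPKM), quantile or median-of-ratios scaling, a pseudocount of 0.1, eBayes without trend, the replicate block, summed transcripts, and each library left out in turn. Coordinates came from GENCODE 29. Python 3.11.15 with pandas 2.3.3, numpy 2.4.6 and matplotlib 3.10.9 was used for tables and figures.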

Additional observations from a re-analysis of the deposited data

How the results depend on the processing

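No proteasome gene and none of the 27 tested genes of the 3 pathway lists was called under any alternative. With the replicate block, and with each library left out, 0 of all genes were called, so these fits say nothing about stability. Of the 42 proteasome genes 20 kept 1 direction throughout, among them PSMD9, PSMA2, PSME2 and PSMG3. With the replicate block 0 genes had an unadjusted p under 0.05, against 3 without it. Among the other counts and medians, these moved. Median-of-ratios scaling, which raised the median of all genes to 0.01, gave 5 genes at an unadjusted p under 0.05, 4 lower genes without overlap, and medians of 0.080 for the 42 genes, 0.116 for PSMA, 0.107 for PSMC, 0.000538 for PSMD and -0.0206 for PSME. Quantile normalization gave a PSMC median of 0.0567. Pathway list genes at an unadjusted p under 0.05 numbered 1 with no filter, 1 at a mean of at least 5 FPKM, 4 after quantile normalization and 6 from summed transcripts, against 2. Leaving out 1 library at a time gave 0 (without control replicate 1) to 5 (without sh-MFAP2 replicate 2) proteasome genes at an unadjusted p under 0.05 and 0 to 9 pathway list genes. It gave 12 to 23 higher and 11 to 20 lower genes without overlap, since fewer libraries overlap less often. The medians then ran from -0.0529 to 0.0848 for the 42 genes, -0.0524 to 0.127 for PSMA, 0.0386 to 0.12 for PSMB, 0.00243 to 0.0914 for PSMC, -0.124 to -0.0391 for PSMD, 0.0554 to 0.287 for PSMG and -0.102 to 0.0477 for PSME. A lone library was assumed to vary like the other group. Otherwise the cause of these moves was not tested.

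The genes that changed sign were near 0 or spread widely between replicates. Under median-of-ratios scaling the difference was 0.0672 for PSMA6, 0.0483 for PSMB1, 0.0691 for PSMB2, 0.0708 for PSMB6, 0.0526 for PSMC2, 0.0136 for PSMD2, 0.0217 for PSMD6, 0.000538 for PSMD7 and 0.0188 for PSMD14. After quantile normalization it was 0.00916 for PSMA6 and 0.00849 for PSMB2, and from summed transcripts -0.379 for PSMA4, -0.0111 for PSMC1 and -0.0753 for PSMG1. Leaving out 1 library at a time gave -0.0524 to 0.142 for PSMA1, -0.0505 to 0.15 for PSMA3, -0.164 to 0.202 for PSMA4, -0.0803 to 0.0751 for PSMA6, -0.0833 to 0.0372 for PSMB1, -0.0411 to 0.0386 for PSMB2, -0.0173 to 0.472 for PSMB4, -0.091 to 0.0904 for PSMB6, -0.0742 to 0.123 for PSMC1, -0.115 to 0.0791 for PSMC2 and -0.0457 to 0.142 for PSMC4. For PSMD and later genes it gave -0.195 to 0.0803 for PSMD2, -0.327 to 0.188 for PSMD7, -0.251 to 0.0388 for PSMD8, -0.0527 to 0.785 for PSMD10, -0.388 to 0.0352 for PSMD12, -0.841 to 0.908 for PSMD13, -0.117 to 0.0164 for PSMD14, -0.394 to 0.234 for PSME1, -0.134 to 0.229 for PSMG1 and -0.366 to 0.653 for PSMG4.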
